A study of Arabidopsis thaliana with 12 samples.

Results

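The response described here is that of an undamaged leaf of Arabidopsis thaliana to the crushing of another leaf on the same rosette, in the Col-0 wild type (WT). It was measured by RNA sequencing in 6 of the 12 libraries of the study, 3 from wounded WT and 3 from unwounded WT, chosen by the genotype and the treatment that the sample labels give. In wounded WT plants the outer part of the blade of leaf 8 was crushed with plastic forceps, and leaf 13, which was not touched, was collected 1 h later. In unwounded WT plants leaf 13 was collected without that treatment. All plants were 5 weeks old and grew with 10 h of light per day, and each library pooled leaf 13 of 2 plants. The labels do not say whether the pools came from separate experiments, so the p-values below measure the spread between these libraries. They also give no clock time of collection for either group. For any gene whose level follows the time of day, effects of wounding and of hour therefore cannot be told apart. The other 6 libraries came from wounded and unwounded isi1-2, a T-DNA insertion line (SALK_014032) of the gene ISI1 in Col-0. They entered the fit to estimate the spread between replicates, and their own response is given only where it is set beside that of WT.

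Jasmonates are plant hormones made from fatty acids of the chloroplast. The conjugate jasmonoyl-isoleucine is perceived by the F-box protein COI1, which marks the JAZ repressors for degradation and so frees the transcription factor MYC2 and its relatives. In Arabidopsis rosettes, leaf damage sends electrical and calcium signals through the veins to leaves that share vascular connections with the damaged one, and jasmonates accumulate there within minutes.

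Library totals ranged from 23307790 to 30747778 counts, and 3 counts, the level taken here as the floor of detection, stood for 0.0976 to 0.129 CPM (counts scaled to library size, the unit of expression used throughout). Among the 3 wounded WT libraries, replicate 1 stood apart. Chi-square values of its counts, divided by their degrees of freedom, were 24.7 against replicate 2 and 15.6 against replicate 3, while replicates 2 and 3 gave 5.38 between them. Over the 2506 genes changed at least 2-fold, the median change in the direction of the group was 1.42 on the log2 scale in replicate 1, 1.77 in replicate 2 and 1.68 in replicate 3. Reads of the chloroplast genome made up 0.0557% of wounded replicate 1, 0.0300% and 0.0290% of the other wounded libraries and 0.0368% to 0.0426% of the unwounded libraries. Each of the 6 WT libraries was left out in turn, and a clause below says where that changed a call or moved a count of members by over 1.5 times. These are bulk samples of whole leaves, in which fewer cells of a type and less RNA per cell cannot be told apart.

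Changes ran through much of the measured transcriptome. Of 18698 genes tested, 8764 (46.9%) were called at an adjusted p under 0.05 by edgeR's quasi-likelihood test with Benjamini-Hochberg adjustment. Of these, 4460 (23.9% of the genes tested) were higher and 4304 (23.0%) were lower in wounded WT. A change of at least 2-fold was found in 1460 higher genes (7.81%) and 1046 lower genes (5.59%), a change of at least 4-fold in 697 higher and 222 lower genes, and a change of at least 16-fold in 233 higher and 9 lower genes. Genes called higher held 28.5% to 31.2% of the CPM in the wounded libraries, against 15.7% to 16.6% in the unwounded libraries. Genes called lower held 24.0% to 25.7% in the wounded libraries and 35.0% to 35.8% in the unwounded ones. Of the genes called higher, 137 were at 3 counts or fewer in each unwounded library, and 17 genes called lower were at 3 counts or fewer in each wounded library. The shares quoted below for gene lists stand beside 23.9% higher, 23.0% lower and a median log2 fold change of -0.00 over all tested genes. The lists and their members were chosen with earlier results of these data known, so the shares describe the lists and test nothing. A gene silent in unwounded leaves could pass the filter on low counts only through wounded libraries. Silent genes that stayed silent are therefore missing from the shares, which raises the share called higher in lists with such members. Where a gene is said to have risen or fallen by a number, that number is its log2 fold change, with its standard error (SE).

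**Figure D1:**
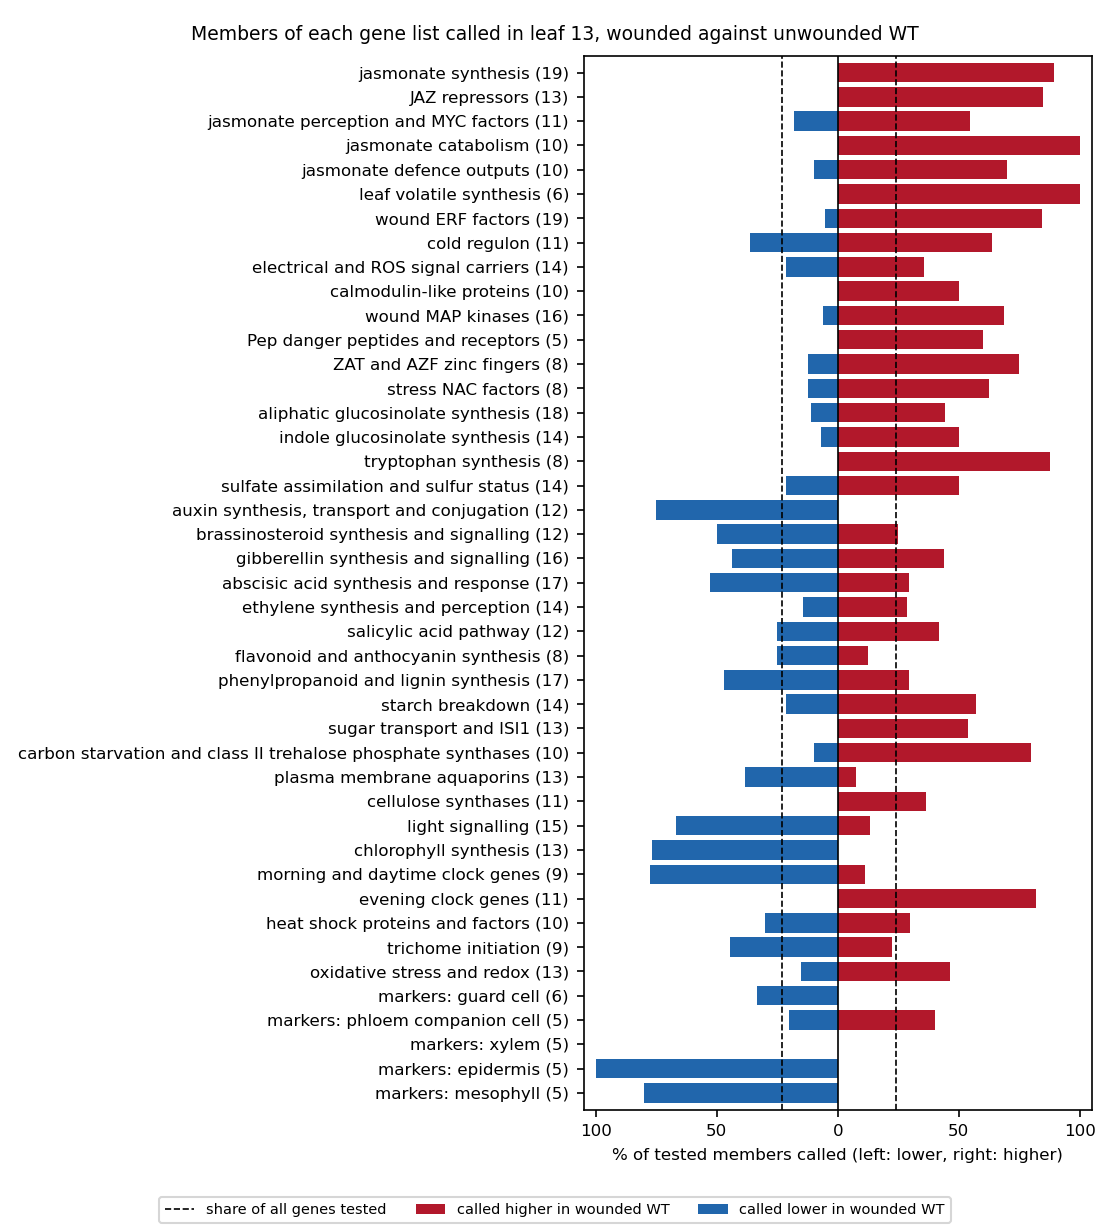
Bars give the percentage of the tested members of each gene list that were called higher (red, right) or lower (blue, left) in leaf 13 of wounded WT against unwounded WT, with the number tested in brackets; dashed lines mark 23.9% and 23.0%, the shares of all 18698 genes. The jasmonate lists, the wound ERF factors and the evening clock genes lie to the right, and auxin, chlorophyll, light and morning clock genes to the left. The lists were chosen with earlier results of these data known, so the distance from the dashed lines is a description and not a test.

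The largest single gains were in enzymes of jasmonate synthesis. LOX2, the main 13-lipoxygenase of the leaf chloroplast, had 8140, 6999 and 6759 CPM in the wounded libraries, against 1174, 782 and 907 CPM in the unwounded libraries (log2 fold change 2.94, SE 0.17; edgeR adjusted p = 1.49e-07). Its mean gain of 6345 CPM was the largest of any gene called. LOX3, a 13-lipoxygenase of the vasculature, had 1688, 3317 and 2781 CPM in wounded leaves, against 30.3, 22.9 and 27.2 CPM in unwounded leaves (log2 fold change 6.60, SE 0.28; edgeR adjusted p = 4.29e-08). The wounded and unwounded libraries did not overlap for either gene, and replicate 1 was the lowest of the wounded libraries for LOX3 and the highest for LOX2. LOX4 rose by a log2 fold change of 7.26 (SE 0.26), while LOX6, another 13-lipoxygenase, rose by 0.56 (SE 0.06).

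The next steps of the pathway rose with them. AOS, the allene oxide synthase, had 2832, 3154 and 2893 CPM in wounded leaves and 325, 245 and 271 CPM in unwounded leaves (log2 fold change 3.4, SE 0.10). The allene oxide cyclases differed in their starting level: AOC2 had 1602, 1903 and 1768 CPM in wounded leaves, against 179, 106 and 137 CPM in unwounded leaves, whereas AOC1 reached 665, 949 and 795 CPM in wounded leaves, against 3.79, 2.37 and 1.67 CPM in unwounded leaves. These 2 loci are neighbours with AOC3 on chromosome 3, and AOC1 had the larger log2 fold change, 8.26 (SE 0.26) against 3.65 (SE 0.17) for AOC2. OPR3, the peroxisomal reductase of the precursor OPDA, had 1568, 2184 and 2076 CPM in wounded leaves, against 29.2, 22.5 and 22.6 CPM in unwounded leaves (log2 fold change 6.29, SE 0.15; edgeR adjusted p = 1.53e-12). OPCL1, which activates the precursor for beta-oxidation, rose by 4.18 (SE 0.18), and the oxidase ACX1 by 1.93 (SE 0.10). JAR1, which joins jasmonic acid to isoleucine, had 655, 1203 and 916 CPM in wounded leaves and 76.2, 65.6 and 78.2 CPM in unwounded leaves. DAD1, a lipase known from anthers, was at 0 counts in each unwounded library and had 1.61, 5.97 and 5.38 CPM in wounded leaves, at least 36.0-fold higher over the group's floor of 3 counts per library. In all, 17 of the 19 tested synthesis genes were called higher and none lower, with a median log2 fold change of 3.4. The 2 not called were ACX5 (-0.12, SE 0.10) and AIM1 (-0.00, SE 0.06), which act in beta-oxidation and whose wounded and unwounded libraries overlapped. The summed level of the 20 genes of the list was 19218 to 22303 CPM in wounded leaves and 1793 to 2438 CPM in unwounded leaves.

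**Figure D2:**
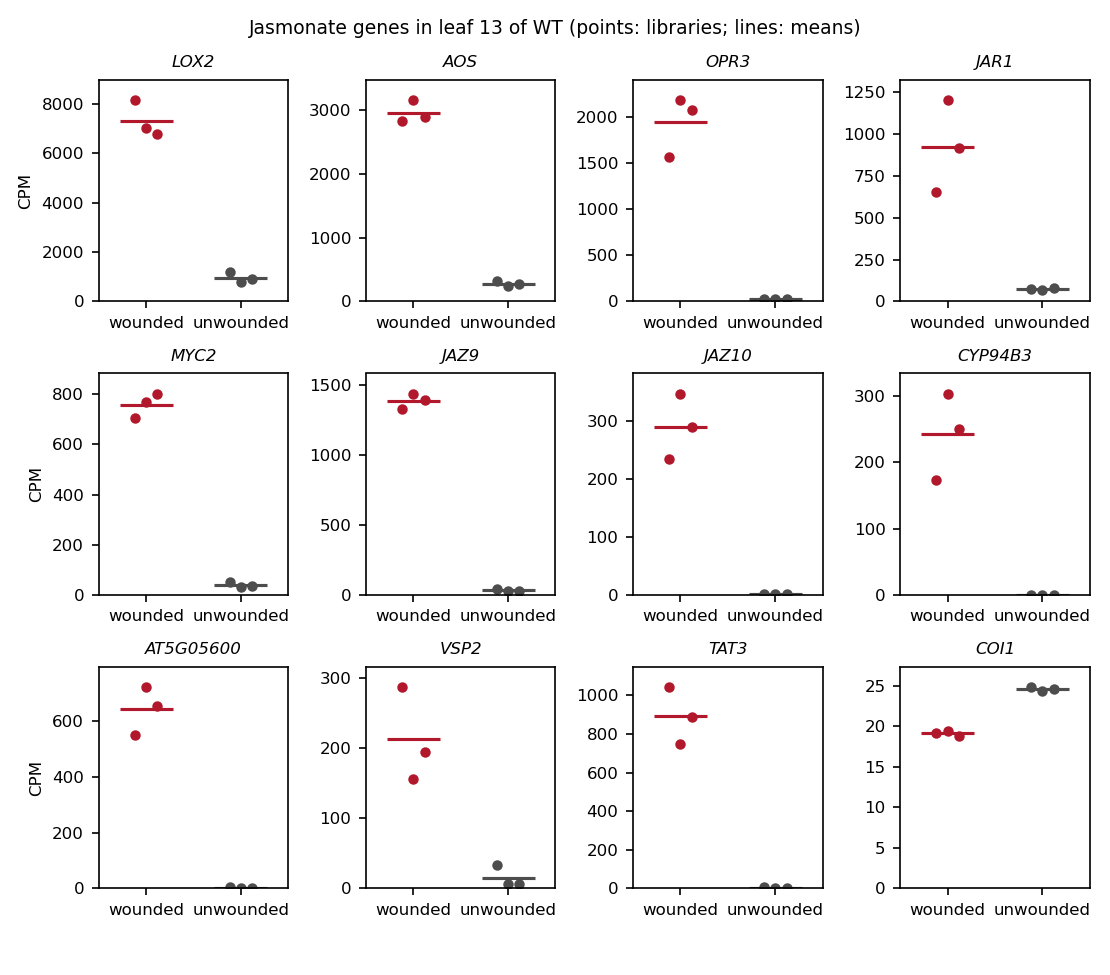
Points give the CPM (linear axes from 0) of 12 jasmonate genes in each of the 3 wounded (left, red) and 3 unwounded (right, grey) WT libraries, and lines the group means. The 2 groups do not overlap in any panel, and COI1 is the panel in which wounded leaves are lower, with means of 19.1 CPM in wounded and 24.6 CPM in unwounded leaves.

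The JAZ repressors rose as a family with 2 exceptions. JAZ9 was at 1327, 1437 and 1392 CPM in wounded leaves, against 45.1, 26.9 and 28.4 CPM in unwounded leaves (log2 fold change 5.37, SE 0.18), and had the highest mean CPM of the family in wounded leaves. JAZ10, widely used as a marker of jasmonate response, had 234, 347 and 290 CPM in wounded leaves and 1.14, 1.09 and 1.30 CPM in unwounded leaves (log2 fold change 7.95, SE 0.17; edgeR adjusted p = 2.37e-13). JAZ7 had 74.2, 150 and 128 CPM in wounded leaves and was at 3 counts or fewer in each unwounded library, which made it at least 975-fold higher. No library of one group reached the other for these genes. The same held for AT3G22275, annotated as a jasmonate ZIM-domain protein, which had 53.5, 65.4 and 65.6 CPM in wounded leaves and was at least 512-fold higher. JAZ8 was at least 147-fold higher. At the low end of the called members, JAZ12 rose by a log2 fold change of 1.70 (SE 0.07) and JAZ3 by 2.96 (SE 0.09). JAZ4 had 0.676, 0.730 and 0.958 CPM in wounded leaves and 1.14, 1.02 and 0.711 CPM in unwounded leaves, and JAZ11 had 7.13, 5.21 and 7.00 CPM in wounded leaves and 5.49, 5.68 and 6.19 CPM in unwounded leaves. For those 2 genes the groups overlapped and neither was called, with log2 fold changes of -0.28 (SE 0.30) and 0.15 (SE 0.17). Altogether 11 of 13 members were called higher and none lower, with a median of 5.37.

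MYC2 binds the G-box, CACGTG, and this motif lay within 250 bases before the annotated start of 5 of the 13 JAZ genes. The motif reads the same on both strands. Among all tested protein-coding genes, 7.54% of 18244 such windows held it. The 3 windows printed here are from JAZ genes that rose and hold the motif, taken from the RefSeq genome TAIR10.1, each 5′ to 3′ on the strand of its gene. JAZ2 lies on the minus strand, with the window at chr1:28150447-28150696, JAZ3 on the plus strand, with the window at chr3:6119457-6119706, and JAZ8 on the plus strand, with the window at chr1:10596102-10596351. Capitals mark the G-box, and in JAZ8 also a W box (TTGACC or its complement), the site bound by WRKY factors.
JAZ2: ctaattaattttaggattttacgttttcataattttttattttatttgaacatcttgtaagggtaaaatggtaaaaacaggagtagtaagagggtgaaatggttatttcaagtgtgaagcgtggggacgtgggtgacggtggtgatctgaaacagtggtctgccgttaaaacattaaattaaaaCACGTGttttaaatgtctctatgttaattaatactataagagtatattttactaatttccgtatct
JAZ3: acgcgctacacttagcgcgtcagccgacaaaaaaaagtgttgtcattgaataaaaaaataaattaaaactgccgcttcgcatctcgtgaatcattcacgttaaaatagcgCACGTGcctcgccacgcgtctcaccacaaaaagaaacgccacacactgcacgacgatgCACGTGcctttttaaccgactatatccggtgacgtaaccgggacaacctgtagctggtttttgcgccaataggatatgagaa
JAZ8: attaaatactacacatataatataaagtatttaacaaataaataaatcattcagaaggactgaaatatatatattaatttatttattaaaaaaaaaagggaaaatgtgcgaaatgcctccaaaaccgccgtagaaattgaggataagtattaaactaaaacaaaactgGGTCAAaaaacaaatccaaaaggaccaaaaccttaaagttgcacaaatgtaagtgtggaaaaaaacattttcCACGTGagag
A match describes the letters of the window and does not show binding.

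Perception and transcription factors of the pathway changed less evenly. MYC2 had 704, 769 and 803 CPM in wounded leaves, against 51.4, 33.4 and 37.1 CPM in unwounded leaves (log2 fold change 4.22, SE 0.15; edgeR adjusted p = 5.62e-10). In the RefSeq annotation a gene on the other strand, AT1G32630, covers 98.5% of its exons; the library kit kept strand, and whether the counting used it is not given in the sources used here. JAM1 and JAM2, which repress the same targets as MYC2, rose by 3.35 (SE 0.11) and 1.89 (SE 0.11), and the adaptor NINJA, which links JAZ proteins to co-repressors, rose by 0.80 (SE 0.06). MYC3 rose by 1.05 (SE 0.07). MYC4 fell, with 13.0, 7.10 and 9.02 CPM in wounded leaves and 19.1, 15.5 and 17.8 CPM in unwounded leaves (log2 fold change -0.85, SE 0.16; edgeR adjusted p = 0.000622). COI1 had 19.2, 19.4 and 18.8 CPM in wounded leaves, against 24.8, 24.4 and 24.6 CPM in unwounded leaves, a log2 fold change of -0.36 (SE 0.07) with no overlap between the groups. Of 11 tested members 6 were called higher and 2 lower.

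Enzymes that remove jasmonates were low in unwounded leaves. All 10 tested members of this list were called higher, with a median log2 fold change of 7.80, and 1 more member had too few counts to be tested. Members silent in unwounded leaves entered this count only through wounded libraries, so the share higher follows in part from the filter. Summed over the list's 11 genes, levels were 2216 to 3191 CPM in wounded leaves and 23.8 to 29.8 CPM in unwounded leaves. CYP94B3, which hydroxylates jasmonoyl-isoleucine, had 174, 304 and 250 CPM in wounded leaves, while the unwounded libraries held 1, 0 and 0 counts; it was at least 2019-fold higher. CYP94B1, a relative with the same activity, was at least 1768-fold higher. CYP94C1, which carries out the next oxidation, had 186, 361 and 304 CPM in wounded leaves and 1.47, 0.903 and 1.46 CPM in unwounded leaves. For each of the 3 cytochrome P450s, replicate 1 was the lowest wounded library. AT2G38240 and AT5G05600, annotated as 2-oxoglutarate and iron-dependent oxygenases, were also high: AT5G05600 had 547, 720 and 654 CPM in wounded leaves and 5.13, 2.11 and 1.38 CPM in unwounded leaves, and AT2G38240 was at least 1466-fold higher. IAR3 and ILL6, amidohydrolases that split jasmonoyl-isoleucine, rose by 5.92 (SE 0.13) and 5.57 (SE 0.12). ST2A, a sulfotransferase of hydroxyjasmonate, had the smallest change of the list, 2.85 (SE 0.39), and JMT, the jasmonate methyltransferase, rose by 4.17 (SE 0.27).

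Defence outputs are described here by branch, and 3 of the 13 listed genes had too few counts to be tested. Outputs of the MYC branch were higher. VSP2, a vegetative storage protein with phosphatase activity, had 287, 157 and 194 CPM in wounded leaves, against 33.3, 6.28 and 6.86 CPM in unwounded leaves (log2 fold change 3.78, SE 0.64; edgeR adjusted p = 0.00122). TAT3, a tyrosine aminotransferase, had 1043, 748 and 888 CPM in wounded leaves and 7.69, 0.527 and 2.47 CPM in unwounded leaves (7.99, SE 0.68). In both genes replicate 1 was the highest library of its group, wounded and unwounded alike. VSP1 rose by 5.72 (SE 0.40), NATA1, an acetyltransferase of diamines, by 5.38 (SE 0.42), CORI3, a cystine lyase, by 4.23 (SE 0.31) and CLH1, a chlorophyllase, by 4.00 (SE 0.14). Members of the ERF branch were low or not called, which does not show that the branches diverged. The plant defensin PDF1.2A had at most 4 counts in a wounded library and 5 in an unwounded one, and the thionin THI2.1 had 1 count in all 6; neither was tested. The hevein-like gene HEL had 3.75, 1.53 and 3.42 CPM in wounded leaves and 3.95, 2.48 and 5.36 CPM in unwounded leaves and was not called. Of the 2 proteins that steer glucosinolate breakdown, ESM1 fell by 0.97 (SE 0.08), with 25.7% of its exonic 100-base windows also found elsewhere in the genome, and ESP rose by 0.41 (SE 0.09). In all 7 of 10 tested members were called higher and 1 lower.

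All 6 genes of leaf volatile synthesis were called higher. TPS04, the geranyllinalool synthase, had 86.4, 104 and 73.5 CPM in wounded leaves and 0 counts in each unwounded library, at least 731-fold higher. CYP82G1, which converts its product to a homoterpene, had 102, 188 and 150 CPM in wounded leaves and was at least 1219-fold higher. The ocimene synthase TPS03 had 318, 229 and 237 CPM in wounded leaves and 8.75, 4.25 and 7.36 CPM in unwounded leaves. TPS10 (AT2G24210), a linalool synthase, rose by 5.02 (SE 0.35) and HPL1, the hydroperoxide lyase of green leaf volatiles, by 5.38 (SE 0.15). CHAT, which acetylates hexenol, had 2.14, 2.26 and 1.95 CPM in wounded leaves and 1.47, 1.35 and 1.13 CPM in unwounded leaves (0.68, SE 0.26; edgeR adjusted p = 0.0398). CHAT was no longer called when any 1 of the 6 libraries was left out, with edgeR adjusted p-values of 0.0536 to 0.125.

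Among transcription factors, several ERF genes were silent or nearly so before wounding. RAP2.6, an ERF factor induced by stress and jasmonate, had 59.7, 100.6 and 77.4 CPM in wounded leaves and 0 counts in each unwounded library, at least 659-fold higher. RRTF1, a redox-responsive ERF factor, had 33.2, 90.3 and 79.2 CPM in wounded leaves and was at least 562-fold higher; genes on the other strand cover 64% of its exons. ABR1 rose by 6.99 (SE 0.46), and DDF1 was at least 49.8-fold higher. ERF1B and ORA59, which act where ethylene and jasmonate signals meet, stayed low in level, at 0.864, 0.398 and 0.921 CPM for ERF1B and 0.413, 0.531 and 0.810 CPM for ORA59 in wounded leaves, and both were called higher, ERF1B by at least 6.05-fold. ERF15 fell, with 5.67, 1.86 and 3.09 CPM in wounded leaves and 8.67, 7.18 and 8.74 CPM in unwounded leaves (-1.22, SE 0.28). Of 19 wound ERF factors tested, 16 were called higher and 1 lower, or 2 lower without wounded replicate 1, with a median of 4.97. Members silent in unwounded leaves entered this count only through wounded libraries, so the share higher follows in part from the filter. The whole AP2/ERF family had 37 of its 82 tested genes higher, 30 by at least 2-fold, and 21 lower, 16 by at least 2-fold.

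The cold regulon was split. CBF2, a DREB factor that switches on cold-response genes, had 0.601, 0.133 and 0.147 CPM in wounded leaves, against 2.65, 2.22 and 3.14 CPM in unwounded leaves (log2 fold change -3.19, SE 0.43; edgeR adjusted p = 1.97e-05). CBF3 fell by 2.38 (SE 0.59) and CBF1 fell by 1.90 (SE 0.49). GOLS3, a galactinol synthase, fell by 1.03 (SE 0.33; edgeR adjusted p = 0.03), and it was no longer called when any library other than unwounded replicate 2 was left out. The target COR15A, a chloroplast stress protein, had 1089, 1271 and 1210 CPM in wounded leaves and 690, 399 and 561 CPM in unwounded leaves (1.11, SE 0.16). The dehydrin gene COR47 rose by 1.73 (SE 0.20), KIN1 by 2.36 (SE 0.29) and ERD10 by 1.62 (SE 0.31), and in all 7 of the 11 members were called higher and 4 lower, 3 of those being the CBF genes.

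Single WRKY, zinc finger and NAC factors of stress responses were also called higher. WRKY18 had 184, 537 and 484 CPM in wounded leaves, against 4.27, 2.26 and 3.56 CPM in unwounded leaves (log2 fold change 6.91, SE 0.49; edgeR adjusted p = 4.17e-06). Its partner WRKY40 had 18.0, 63.4 and 53.6 CPM in wounded leaves and 0.855, 0.677 and 0.460 CPM in unwounded leaves. In both, replicate 1 was the lowest wounded library by more than 2-fold and still far above the unwounded ones. Of 39 WRKY genes tested, 19 were called higher and 7 lower, with WRKY11 (-1.11, SE 0.11) among the lower ones. ZAT10 and ZAT12, C2H2 zinc finger factors, rose by 5.23 (SE 0.39) and, as a bound, at least 37.9-fold. Of 8 ZAT and AZF zinc fingers tested, 6 were called higher and 1 lower, AT2G28200, whose call (-0.64, SE 0.25) was lost under every alternative but 1, the fit without unwounded replicate 1. NAC019, NAC055 and RD26, NAC factors induced by jasmonate and abscisic acid, were called higher: RD26 had 65.3, 120 and 102 CPM in wounded leaves and 4.15, 3.35 and 2.38 CPM in unwounded leaves. NAP, a NAC factor of leaf senescence, fell to 0.113, 0 and 0.184 CPM in wounded leaves, against 1.34, 1.17 and 0.669 CPM in unwounded leaves (-3.41, SE 0.65). Of 8 stress NAC factors tested 5 were called higher and 1, NAP, lower. In the whole NAC family 10 of 46 genes tested were called higher (21.7%, against 23.9% of all genes) and 7 lower. The bHLH family had more members lower than higher, 38 and 26 of 90. A member that rose was NAI1, which shapes endoplasmic reticulum bodies, with 126, 153 and 128 CPM in wounded leaves and 0.529, 0.903 and 0.879 CPM in unwounded leaves (7.45, SE 0.13).

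The carriers of the wound signal shifted by small steps, with a median log2 fold change of 0.19. Among 14 tested members of the electrical and reactive oxygen signal carriers, 5 were called higher and 3 lower. RBOHD, the NADPH oxidase of the oxidative burst, had 76.4, 61.2 and 60.3 CPM in wounded leaves and 26.2, 21.8 and 23.5 CPM in unwounded leaves (1.47, SE 0.10), and the calcium pump ACA8 rose by 1.39 (SE 0.08). The 2 glutamate receptor-like channels needed for the distal signal went in opposite directions: GLR3.3 rose by 0.50 (SE 0.12) and GLR3.6 fell by 1.00 (SE 0.12). MSL10, a mechanosensitive channel, fell by 0.90 (SE 0.11). Of 10 calmodulin-like proteins tested, which are calcium sensors, 5 were called higher, each by at least 2-fold, and none lower, with a median of 1.27. The touch gene TCH3 rose by 2.93 (SE 0.38), with 20.2% of its exons covered by genes on the other strand. All 10 called members among 19 calcium-dependent protein kinases were higher, led by CPK6 (1.75, SE 0.20).

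In the MAP kinase cascade, 11 of 16 genes were called higher and 1 lower, or 2 lower without wounded replicate 1. MAPKKK17, a kinase at its head, had 18.0, 37.4 and 28.1 CPM in wounded leaves and 0.895, 0.715 and 0.628 CPM in unwounded leaves (5.22, SE 0.34), MAPKKK14 rose by 4.03 (SE 0.31) and MAPKKK19 was at least 74.1-fold higher. MKK9, one level down, rose by 2.22 (SE 0.16). MPK3 fell by 0.45 (SE 0.09) and MPK6 rose by 0.32 (SE 0.07). The receptors of the Pep danger peptides rose: PEPR1 had 71.8, 157 and 141 CPM in wounded leaves and 20.3, 18.8 and 20.04 CPM in unwounded leaves (2.64, SE 0.26), and PEPR2 rose by 2.99 (SE 0.17). Genes on the other strand overlapped 26.3% of the exon length of PEPR2. Of the peptide precursors, PROPEP4 was called higher at a low level, with 1.69, 0.664 and 0.810 CPM in wounded leaves and 0.326, 0.113 and 0.209 CPM in unwounded leaves (2.27, SE 0.51). PROPEP5 was not called (0.57, SE 0.38). PROPEP1 was not called either, at 1.01, 0.863 and 0.994 CPM in wounded leaves and 1.55, 0.940 and 1.21 CPM in unwounded leaves. In the Pep list 3 of the 5 genes tested were called higher and none lower, and PROPEP2 and PROPEP3, with at most 1 count in a library, were not tested.

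Indole glucosinolate synthesis and its tryptophan supply rose together. Glucosinolates are sulfur-rich defence compounds of the cabbage family, made from tryptophan (indole type) or from elongated methionine (aliphatic type). ASA1, the first enzyme of tryptophan synthesis, had 327, 305 and 292 CPM in wounded leaves, against 41.3, 37.3 and 39.5 CPM in unwounded leaves (log2 fold change 2.97, SE 0.07; edgeR adjusted p = 1.11e-14). AT2G04400, annotated as an aldolase-type TIM barrel protein, rose by 2.44 (SE 0.07), the synthase subunits TSB2 and TSA1 by 1.90 (SE 0.10) and 1.58 (SE 0.08), and 7 of 8 tryptophan genes were called higher with none lower. Without wounded replicate 1, or without unwounded replicate 1, 1 member was called lower. MYB34, a regulator of the indole branch, had 225, 232 and 224 CPM in wounded leaves and 25.8, 21.2 and 20.04 CPM in unwounded leaves (3.35, SE 0.09). CYP79B3, which commits tryptophan to the branch, had 453, 390 and 387 CPM in wounded leaves and 36.2, 23.5 and 24.8 CPM in unwounded leaves (3.86, SE 0.16). CYP83B1, the following enzyme, had 1460, 1431 and 1433 CPM in wounded leaves, against 232, 186 and 212 CPM in unwounded leaves (2.78, SE 0.08). The replicates of each group lay close together for these genes and far from the other group. SOT16, the sulfotransferase, rose by 2.70 (SE 0.09). MYB51, a second regulator of the branch, had 3.45, 3.42 and 3.61 CPM in wounded leaves and 2.89, 2.41 and 4.18 CPM in unwounded leaves and was not called. In all 7 of 14 indole genes were called higher and 1 lower, with a median of 1.26; the number lower was 2 without wounded replicate 1 and 0 without wounded replicate 3.

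The aliphatic branch was mixed. MYB28, its main regulator, fell, with 31.2, 22.8 and 25.1 CPM in wounded leaves and 89.3, 69.4 and 70.7 CPM in unwounded leaves (-1.54, SE 0.11; edgeR adjusted p = 6.13e-08). MYB76 rose by 1.57 (SE 0.18). Among the enzymes, GGP1, which both branches use, had 909, 943 and 941 CPM in wounded leaves and 133, 86.2 and 102 CPM in unwounded leaves (3.12, SE 0.12), and SOT17 rose by 1.40 (SE 0.19). CYP79F1, an entry enzyme of this branch alone, was not called (0.15, SE 0.17), but was called higher without unwounded replicate 1, at 0.37 (SE 0.13). Of 18 members 8 were called higher and 2 lower, with a median of 0.13, and 1 was lower when any library other than wounded replicate 1 was left out.

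Sulfate assimilation divided at its branch point. APK1 and APK2, kinases that make the sulfate donor of glucosinolate synthesis, rose by 2.06 (SE 0.13) and 2.07 (SE 0.18): APK1 had 338, 291 and 305 CPM in wounded leaves and 93.1, 58.0 and 72.8 CPM in unwounded leaves. The sulfurylase APS3, one step earlier, rose by 2.1 (SE 0.10). Reductases of the branch to cysteine went the other way. APR2 had 13.4, 7.30 and 11.8 CPM in wounded leaves, against 55.0, 47.7 and 51.0 CPM in unwounded leaves (-2.25, SE 0.18), with 49.1% of its exons covered by genes on the other strand, and APR3 fell by 1.04 (SE 0.25). SDI1, a marker of low sulfur, rose by 2.08 (SE 0.35) at 0.796 to 1.55 CPM in wounded leaves. Of 14 members 7 were called higher and 3 lower. Without wounded replicate 1, 4 of the same members were called lower, and 5 with BGLU28, a beta-glucosidase that passed the filter on low counts there and not with all libraries.

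**Figure D3:**
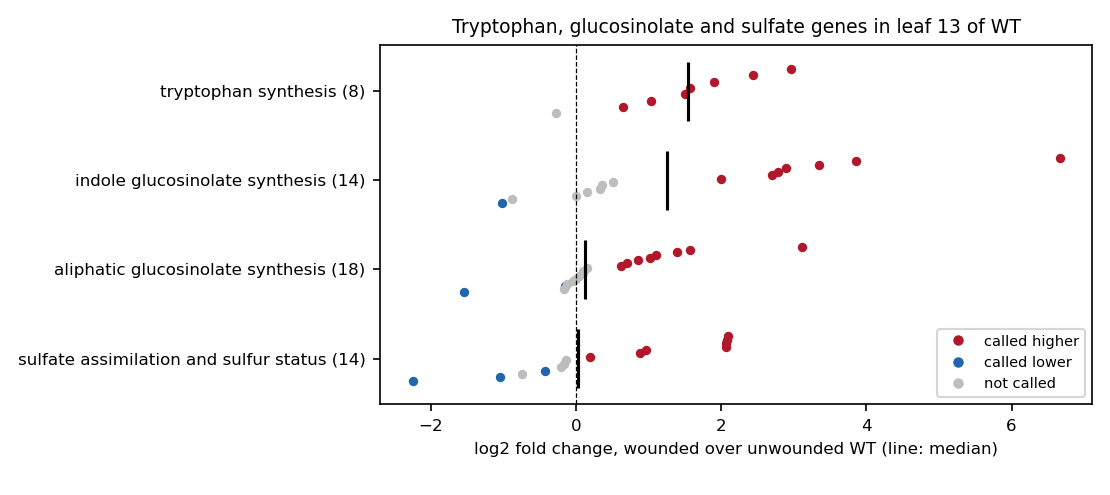
Points give the log2 fold change of each tested gene, wounded over unwounded WT, for tryptophan, indole glucosinolate, aliphatic glucosinolate and sulfate genes, red where called higher, blue where called lower and grey where not called; black lines are medians. The 7 tryptophan genes called lie at 0.65 or above, and the aliphatic genes centre near 0 with a median of 0.13.

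Redox genes were called higher at 6 of 13 tested members and lower at 2, with a median log2 fold change of 0.22. Among all genes called, DHAR1 and FAMT had some of the largest gains in CPM. DHAR1, a dehydroascorbate reductase, had 1602, 1612 and 1538 CPM in wounded leaves, against 152, 94.7 and 115 CPM in unwounded leaves (3.72, SE 0.14; edgeR adjusted p = 2.51e-10); 7.87% of its exonic 100-base windows occur elsewhere in the genome. The ascorbate synthesis genes VTC5 and VTC2, which encode the same enzyme activity, went in opposite directions: VTC5 had 178, 192 and 186 CPM in wounded leaves and 23.7, 23.8 and 21.9 CPM in unwounded leaves, while VTC2 had 97.5, 67.0 and 67.8 CPM in wounded leaves and 158, 138 and 143 CPM in unwounded leaves. CAT2, the catalase of photorespiration, fell by 1.38 (SE 0.13). Among 15 tau glutathione transferases 7 were called higher and 3 lower; GSTU5 had 973, 1184 and 1111 CPM in wounded leaves and 94.9, 74.1 and 79.3 CPM in unwounded leaves. Outside these groups, BGLU18, a beta-glucosidase of endoplasmic reticulum bodies, had 1269, 590 and 631 CPM in wounded leaves. In unwounded leaves it had 104, 54.3 and 57.0 CPM, and replicate 1 was the highest in both groups. FAMT, a methyltransferase of farnesoic acid, had 1687, 1413 and 1548 CPM in wounded leaves and 50.4, 13.0 and 28.5 CPM in unwounded leaves (5.67, SE 0.45).

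Auxin genes fell as a group. The efflux carrier PIN3 had 22.1, 9.92 and 11 CPM in wounded leaves, against 80.8, 89.6 and 82.0 CPM in unwounded leaves (log2 fold change -2.56, SE 0.26; edgeR adjusted p = 3.15e-05). PIN7 had 45.4, 21.1 and 28.3 CPM in wounded leaves and 149, 156 and 141 CPM in unwounded leaves (-2.24, SE 0.24). In both, replicate 1 was the wounded library nearest to the unwounded ones. PIN4 fell by 1.28 (SE 0.19), and GH3.6, which conjugates auxin to amino acids, fell by 2.25 (SE 0.27). TAA1, the aminotransferase of auxin synthesis, fell by 1.36 (SE 0.17). Of 12 tested auxin genes 9 were called lower and none higher, with a median of -1.25. GH3.3, not called, had 3.72, 1.79 and 1.47 CPM in wounded leaves and 0.244, 1.62 and 0.293 CPM in unwounded leaves; without unwounded replicate 2 it was called higher (3.09, SE 0.82; edgeR adjusted p = 0.0135).

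Early auxin-response genes and wall-loosening genes fell alongside. SAUR proteins promote cell expansion by keeping proton pumps active, and 30 of 48 tested members (62.5%) were called lower and 9 higher, with a median log2 fold change of -1.22. AT4G38860, of this family, had 16.2, 3.72 and 4.05 CPM in wounded leaves and 41.5, 43.3 and 41.6 CPM in unwounded leaves (-2.41, SE 0.47). Against that direction AT4G12410 had 1.91, 4.74 and 3.94 CPM in wounded leaves and 0.0814, 0.0376 and 0.209 CPM in unwounded leaves (4.99, SE 0.48). Among 19 Aux/IAA repressors 10 were called lower and 3 higher, from IAA29 (-2.75, SE 0.31) to IAA18 (2.13, SE 0.12). EXPA8, an expansin that loosens walls, had 6.42, 2.26 and 3.24 CPM in wounded leaves, against 96.5, 74.4 and 112 CPM in unwounded leaves (-4.58, SE 0.38). EXPA11 had 9.69, 7.76 and 8.58 CPM in wounded leaves, against 44.0, 38.4 and 39.5 CPM in unwounded leaves (-2.23, SE 0.11). Of 13 alpha-expansins 7 were called lower and 3 higher. Xyloglucan endotransglucosylases split: XTH31 had 7.32, 2.49 and 4.24 CPM in wounded leaves and 60.8, 46.2 and 47.9 CPM in unwounded leaves, while XTH25 had 41.4, 56.1 and 54.5 CPM in wounded leaves and 1.38, 2.03 and 3.85 CPM in unwounded leaves. Of 18 members 9 were called lower and 3 higher. Cellulose synthase genes moved little, with 4 of 11 called higher and none past 0.36 on the log2 scale.

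**Figure D4:**
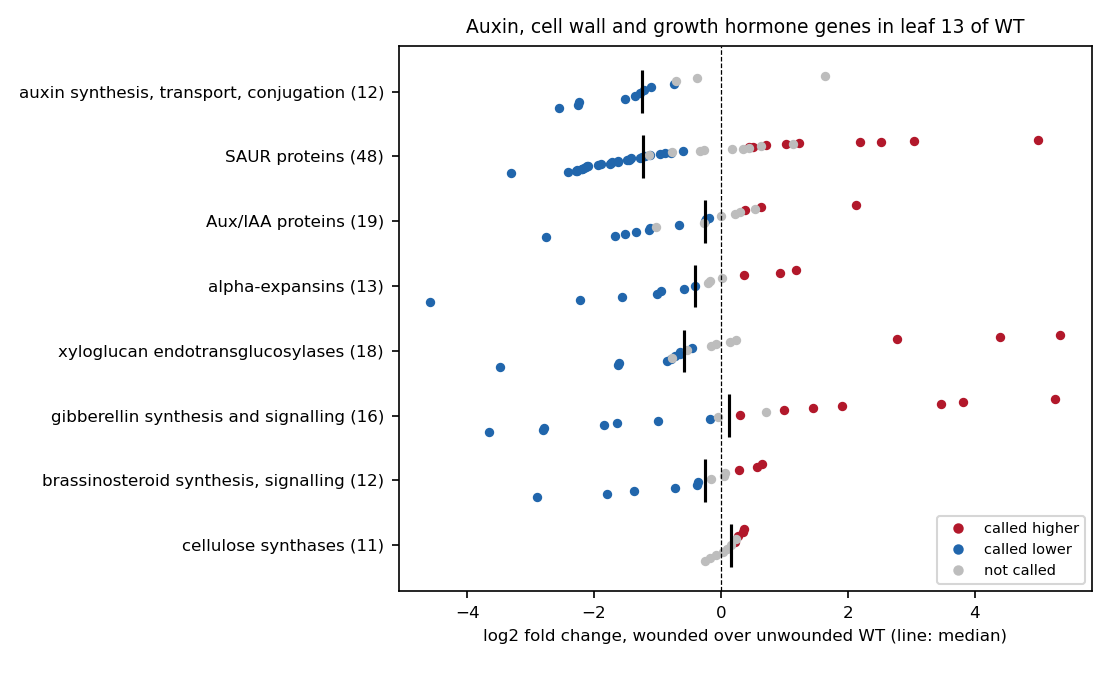
Points give the log2 fold change of each tested gene, wounded over unwounded WT, for 8 lists and families of auxin, cell wall and growth hormone genes; colours give the call and black lines the median. SAUR proteins and auxin genes have medians of -1.22 and -1.25, and gibberellin genes are spread from -3.65 to 5.26.

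Gibberellin genes moved in both directions. GA3OX1, which makes active gibberellin, had 1.16, 0.995 and 1.47 CPM in wounded leaves and 7.77, 12.3 and 5.31 CPM in unwounded leaves (-2.81, SE 0.31), and GA20OX1, one step earlier, fell by 1.85 (SE 0.23). GA2OX2, which inactivates gibberellins, had 33.0, 48.5 and 40.1 CPM in wounded leaves, against 2.28, 4.06 and 2.22 CPM in unwounded leaves (3.82, SE 0.20), but GA2OX1, of the same activity, fell by 2.79 (SE 0.35). Among the DELLA repressors, RGL3 had 66.8, 93.7 and 82.5 CPM in wounded leaves and 2.32, 1.54 and 2.51 CPM in unwounded leaves (5.26, SE 0.19; edgeR adjusted p = 2.79e-10). RGL1 rose by 1.91 (SE 0.10) and RGA fell by 0.99 (SE 0.11). GASA6, a gibberellin-induced peptide gene, had 7.02, 4.71 and 6.15 CPM in wounded leaves and 70.9, 74.4 and 79.0 CPM in unwounded leaves (-3.65, SE 0.20), with 22.6% of its exons covered by a gene on the other strand. The list had 7 of 16 members called higher and 7 lower. Among brassinosteroid genes, 6 of 12 were called lower and 3 higher. BR6OX2, of the last steps of synthesis, fell by 1.8 (SE 0.23), and BAS1, which inactivates the hormone, fell by 2.90 (SE 0.22).

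The abscisic acid, ethylene and salicylic acid lists held few large changes. Of 17 abscisic acid genes 9 were called lower and 5 higher: NCED3, of the rate-limiting step of synthesis, fell by 0.85 (SE 0.15), while RD20, a calcium-binding drought-response gene, had 201, 243 and 217 CPM in wounded leaves and 26.1, 15.9 and 17.7 CPM in unwounded leaves (3.47, SE 0.21). RD29B, another marker of abscisic acid response, was not called (0.40, SE 0.49). The ethylene list had 4 of 14 members called higher and 2 lower, and 1 of the lower calls was lost without wounded replicate 1 or 2 or unwounded replicate 2 or 3. The largest rises were those of EBF1 (1.41, SE 0.07), an F-box protein that removes the ethylene factor EIN3, and ACO4 (1.13, SE 0.08), an oxidase of ethylene synthesis. The salicylic acid list had 5 of 12 called higher and 3 lower; EDS5, which exports the precursor from the chloroplast, had 40.6, 45.3 and 40.6 CPM in wounded leaves and 3.34, 2.07 and 2.38 CPM in unwounded leaves (4.02, SE 0.13), and ICS1, which makes that precursor, fell by 0.68 (SE 0.13). PR1, a marker of salicylic acid response, had 0 counts in each wounded library and at most 1 in an unwounded one.

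Phenylpropanoid genes fell more often than they rose, 8 against 5 of 17. PAL1, the entry enzyme, rose by 0.97 (SE 0.11), while the lignin enzymes CAD4 (-1.39, SE 0.09) and FAH1 (-1.37, SE 0.12) fell. CAD4 had 22.0, 21.9 and 22.1 CPM in wounded leaves and 56.7, 55.5 and 60.8 CPM in unwounded leaves. CHS, the first enzyme of flavonoid synthesis, fell by 1.28 (SE 0.17), and PAP1, a regulator of anthocyanins, rose by 1.06 (SE 0.24). Only 8 of the 13 flavonoid genes had enough counts to be tested.

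Sugar and starch genes rose moderately. Of 13 genes of sugar transport, a list that includes ISI1, 7 were called higher and none lower, or 2 lower without wounded replicate 1. SWEET12, an exporter that loads sucrose for the phloem, had 74.1, 58.6 and 60.2 CPM in wounded leaves, against 10.6, 7.71 and 7.24 CPM in unwounded leaves (2.91, SE 0.17; edgeR adjusted p = 4.74e-08). SWEET16, of the vacuole membrane, rose by 2.47 (SE 0.12), the wall invertase CWINV1 by 2.18 (SE 0.19), and the hexose transporter STP1 by 1.60 (SE 0.22). Of 14 starch breakdown genes 8 were called higher and 3 lower, with 1 lower without wounded replicate 2 or 3 or unwounded replicate 1 and 0 without unwounded replicate 3. The member changed by at least 2-fold was BAM5, a beta-amylase, which had 45.7, 22.3 and 29.2 CPM in wounded leaves and 2.93, 1.2 and 1.26 CPM in unwounded leaves (4.17, SE 0.42). ASN1, an asparagine synthetase that rises when carbon is short, had 48.7, 50.9 and 46.7 CPM in wounded leaves and 6.19, 11.3 and 10.3 CPM in unwounded leaves (2.39, SE 0.22). Among 10 tested genes of carbon starvation and trehalose phosphate synthases, 8 were called higher and 1 lower. The lower gene was TPS5, a trehalose phosphate synthase, which fell by 1.65 (SE 0.11), while TPS9 rose by 1.36 (SE 0.14).

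Photosynthesis genes fell by small factors from very high levels. Of 43 nuclear genes of photosystem subunits and antenna proteins, 20 (46.5%) were called lower and 1 higher. That 1 was no longer called without wounded replicate 1 or 3 or unwounded replicate 1 or 2. Their summed level was 153020 to 169700 CPM in wounded leaves and 183920 to 193480 CPM in unwounded leaves. LHCB2.1, an antenna protein of photosystem II, had 2124, 1596 and 1667 CPM in wounded leaves and 3336, 3372 and 3488 CPM in unwounded leaves (-0.92, SE 0.15); 10.7% of its exonic 100-base windows occur elsewhere. RCA, the rubisco activase, had 5439, 4995 and 4990 CPM in wounded leaves and 7024, 7545 and 7499 CPM in unwounded leaves (-0.52, SE 0.06). RBCS1A, a small subunit of rubisco, fell by 0.22 (SE 0.07; edgeR adjusted p = 0.0148), a call that was lost without wounded replicate 3 or without unwounded replicate 2 or 3. Chlorophyll synthesis was lower at 10 of its 13 genes and higher at none, with a median of -0.58. CAO, which makes chlorophyll b, had 129, 108 and 115 CPM in wounded leaves, against 292, 295 and 306 CPM in unwounded leaves (-1.34, SE 0.09), and HEMA1, the first committed enzyme, had 333, 300 and 374 CPM in wounded leaves and 622, 729 and 637 CPM in unwounded leaves (-0.98, SE 0.19). GUN4, a cofactor of magnesium chelatase, fell by 1.44 (SE 0.12), with 73.0% of its exons covered by a gene on the other strand.

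Of 15 light signalling genes 10 were called lower, or 6 without wounded replicate 2, and 2 were called higher. PIF5, a growth-promoting bHLH factor removed by phytochrome, had 40.5, 41.9 and 37.7 CPM in wounded leaves and 96.8, 95.9 and 94.3 CPM in unwounded leaves (-1.26, SE 0.06), whereas its relative PIF4 rose by 0.34 (SE 0.06). PIF1 fell by 1.38 (SE 0.12). Of 16 B-box zinc fingers, many of which act in light responses, 9 were called lower and 2 higher. BBX16 had 2.55, 1.36 and 1.22 CPM in wounded leaves and 24.0, 19.2 and 22.1 CPM in unwounded leaves (-3.68, SE 0.23), and BBX18 fell by 3.32 (SE 0.17). BBX13 went the other way, with 269, 438 and 424 CPM in wounded leaves and 17.58, 17.0 and 16.9 CPM in unwounded leaves (4.46, SE 0.17). The NPH3 family, which includes phototropin partners, had 18 of 28 members lower (64.3%, against 23.0% of all genes) and 4 higher. It was taken from 166 annotation terms with at least 10 tested genes, with its values known.

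Clock genes changed by the time of day at which they normally peak. In the plant clock, CCA1 and LHY are expressed at dawn and repress evening genes through the evening element, and PRR9, PRR7, PRR5 and TOC1 follow in sequence through the day. Morning and daytime genes were lower at 7 of 9 members. CCA1 had 1.46, 1.19 and 1.22 CPM in wounded leaves, against 12.2, 8.46 and 12.1 CPM in unwounded leaves (log2 fold change -3.08, SE 0.21; edgeR adjusted p = 5.47e-09). RVE8, an activator of evening genes, had 0.375, 0.332 and 0.405 CPM in wounded leaves and 1.59, 1.88 and 1.55 CPM in unwounded leaves (-2.17, SE 0.26). Its coactivators LNK1 (-1.14, SE 0.14) and LNK2 (-1.24, SE 0.10) fell, and PRR7 fell by 0.54 (SE 0.08). PRR9 had 1.88, 0.896 and 0.810 CPM in wounded leaves and 19.0, 14.2 and 16.8 CPM in unwounded leaves (-3.81, SE 0.24); 41.5% of its exonic 100-base windows occur elsewhere in the genome, so reads from them may be missing from its level. RVE2 was the member called higher (1.66, SE 0.59; edgeR adjusted p = 0.0361), and it was no longer called when any library other than wounded replicate 1 was left out.

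Evening genes were higher at 9 of 11 members and lower at none, with a median of 1.08. TOC1 had 104, 159 and 153 CPM in wounded leaves and 54.0, 47.0 and 50.0 CPM in unwounded leaves (1.46, SE 0.14). LUX, of the evening complex, had 64.3, 94.7 and 90.9 CPM in wounded leaves and 23.4, 22.2 and 24.3 CPM in unwounded leaves (1.84, SE 0.13), and its relative BOA rose by 2.21 (SE 0.20). Genes on the other strand overlapped 45.9% of the exon length of BOA and 17.8% of that of LUX. ELF4, another subunit of the complex, had 28.2, 30.6 and 35.2 CPM in wounded leaves and 17.5, 13.2 and 13.9 CPM in unwounded leaves. Replicate 1 was the wounded library nearest to the unwounded ones for TOC1, LUX and ELF4. GI had 177, 191 and 181 CPM in wounded leaves and 166, 165 and 167 CPM in unwounded leaves and was not called (0.14, SE 0.06; edgeR adjusted p = 0.067). Since the labels give no clock time of collection, an effect of wounding and an effect of a different hour cannot be told apart for these genes. The same limit holds for genes of the other lists and families whose level follows the time of day.

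**Figure D5:**
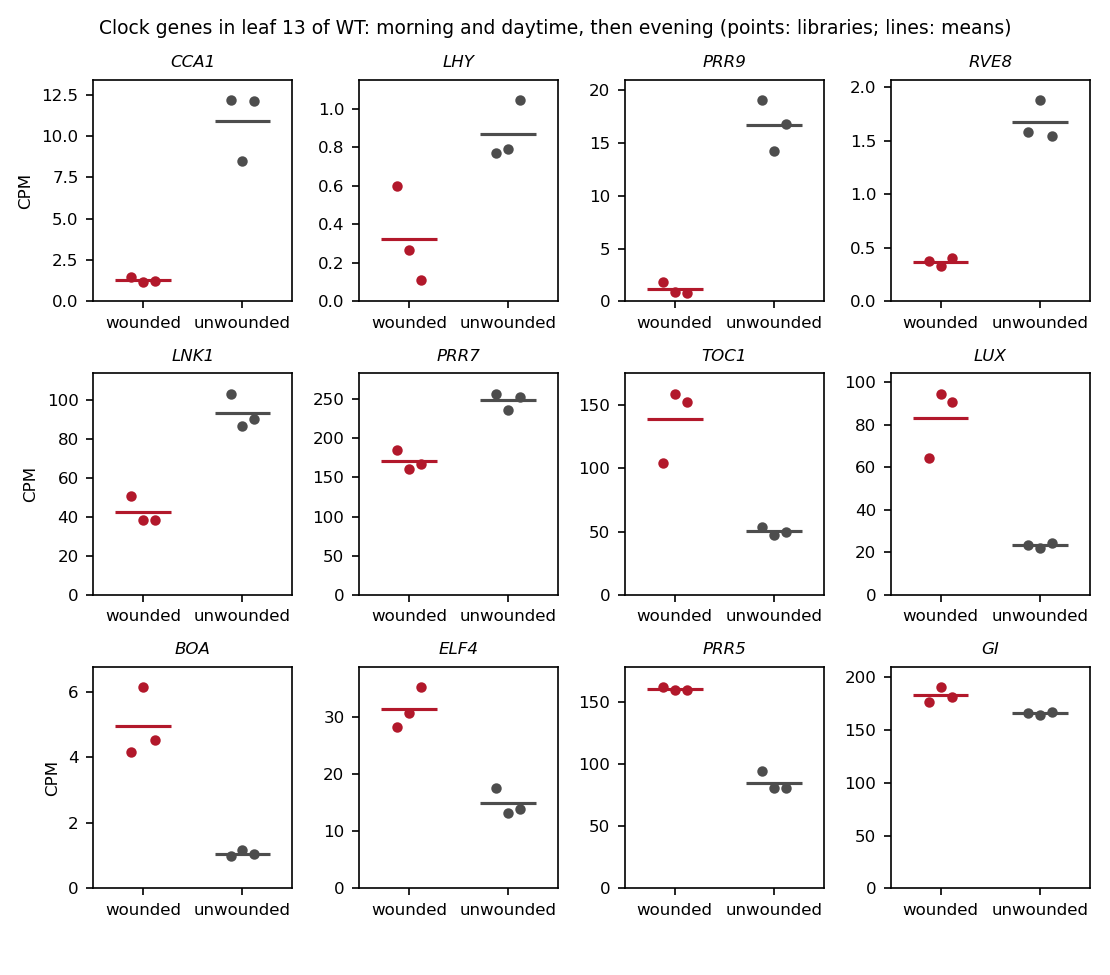
Points give the CPM (linear axes from 0) of 6 morning and daytime genes and then 6 evening genes in the 3 wounded (left, red) and 3 unwounded (right, grey) WT libraries; lines are means. Each of the first 6 is lower in wounded leaves with no overlap, and the evening genes other than GI are higher by log2 fold changes of 0.91 to 2.21.

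The evening element, AAAATATCT on either strand, lay within 250 bases before the annotated start of 5 of the 11 evening genes and of none of the 9 morning and daytime genes, against 2.58% of all tested protein-coding genes. The G-box lay in that window of 6 of the 9 morning and daytime genes and 2 of the 11 evening genes. The windows of TOC1 (chr5:24674713-24674962, plus strand), LUX (chr3:17182792-17183041, plus strand) and PRR9 (chr2:19232357-19232606, plus strand) are printed because these genes show both directions of change, with the evening element and the G-box in capitals.
TOC1: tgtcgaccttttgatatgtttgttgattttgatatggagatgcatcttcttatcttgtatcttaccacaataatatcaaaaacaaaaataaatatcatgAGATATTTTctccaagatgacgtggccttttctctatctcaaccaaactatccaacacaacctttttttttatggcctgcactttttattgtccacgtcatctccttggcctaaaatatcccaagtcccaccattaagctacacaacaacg
LUX: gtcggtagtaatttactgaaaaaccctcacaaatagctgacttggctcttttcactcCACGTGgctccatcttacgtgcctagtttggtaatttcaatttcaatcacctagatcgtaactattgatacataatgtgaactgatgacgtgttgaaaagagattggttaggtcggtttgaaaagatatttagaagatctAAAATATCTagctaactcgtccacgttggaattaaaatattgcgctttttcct
PRR9: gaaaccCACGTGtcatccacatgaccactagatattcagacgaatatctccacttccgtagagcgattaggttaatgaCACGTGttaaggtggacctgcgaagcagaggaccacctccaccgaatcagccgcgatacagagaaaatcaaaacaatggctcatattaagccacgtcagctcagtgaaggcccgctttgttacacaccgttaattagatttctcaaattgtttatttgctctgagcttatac

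Over the whole set of genes changed at least 2-fold, the G-box was in 13.4% of 1437 windows of higher genes and 6.80% of 1014 windows of lower genes, against 6.97% of 9592 windows of genes not called. Among genes higher by at least 16-fold it was in 17.2% of 227 windows. The rapid stress response element CGCGTT was in 5.36% of windows of genes higher by at least 2-fold, 1.08% of those of lower genes and 2.53% of those of genes not called. The W box was in 15.4% of windows of higher genes, 11.1% of those of lower genes and 11.9% of all tested protein-coding genes. In the genes higher by at least 16-fold, the rapid stress response element was in 4.0% of windows and the W box in 12.3%. Within the jasmonate lists the shares were uneven: the G-box was in 2 of 20 synthesis genes and 1 of 11 catabolism genes.

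Water channels, translation and protein turnover showed smaller shifts. Of 13 plasma membrane aquaporins 5 were called lower, all of them PIP1 genes such as PIP1;4 (-0.95, SE 0.08), and 1 was higher, PIP2;3, with 35.9, 54.2 and 42.4 CPM in wounded leaves and 8.43, 7.94 and 8.95 CPM in unwounded leaves (2.39, SE 0.16); 2 were higher without wounded replicate 1. Ribosomal protein genes were lower at 108 of 264 members (40.9%) and higher at 15, with a median of -0.16 and only 2 lower by 2-fold or more. Chaperonin subunits of the TCP-1/cpn60 family were lower at 8 of 12 (66.7%) and higher at none. The DEA(D/H)-box RNA helicases were lower at 11 of 18 (61.1%) and higher at none, against 23.0% lower over all genes. Both families were taken from 166 annotation terms with at least 10 tested genes, with their values known. Genes annotated to the proteasome were called higher at 13 of 42 (31.0%, against 23.9% of all genes) and lower at 2, by small steps with a median of 0.07. In isi1-2, 7 of them were called higher and 6 lower. Of 102 cytochrome P450 genes 49 were called lower and 23 higher, among the lower ones CYP71B2 (-3.25, SE 0.21). Ubiquitin ligases of the PUB family were higher at 11 of 20 and lower at 3, and ABCG transporters higher at 11 of 24 and lower at 3, or at 5 without wounded replicate 2. ABCG34 rose by 2.46 (SE 0.15).

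The heat shock and trichome lists had no common direction. Of 10 tested heat shock genes 3 were called higher and 3 lower; HSP101 fell by 0.88 (SE 0.13), and HSP17.6A had 0 counts in all 6 libraries. The trichome regulators GL3 and EGL3, bHLH factors with overlapping roles, went in opposite directions. GL3 rose by 3.70 (SE 0.55), while EGL3 fell by 3.14 (SE 0.44). TRY, an inhibitor of trichome formation, fell by 1.62 (SE 0.38). Of 9 trichome genes tested 2 were called higher, or 1 when any library other than wounded replicate 1 was left out, and 4 lower.

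Cell type markers were examined for the tissue itself. The root markers WOX5, TIP2;3, PHT1;1, RHD6 and COBL9 and the flower markers AP3, PI, SEP1 and SEP2 had too few counts to be tested. The other root marker, NAS1, a nicotianamine synthase, was called lower, with 0.150, 0.199 and 0.295 CPM in wounded leaves and 1.26, 1.05 and 1.63 CPM in unwounded leaves (-2.58, SE 0.33). The other flower marker, AG, a floral organ identity factor, was called lower (-1.29, SE 0.47), with 0.601, 0.133 and 0.258 CPM in wounded leaves and 0.570, 0.865 and 0.962 CPM in unwounded leaves. The groups overlapped for AG, and its call was lost with only the 6 WT samples and without wounded replicate 2 or 3 or unwounded replicate 2 or 3. The mesophyll markers were high in all 6 libraries, at a summed level of 32635 to 34753 CPM in wounded leaves and 39027 to 43780 CPM in unwounded leaves. All 5 epidermal markers were called lower, with a summed level of 678 to 736 CPM in wounded leaves and 1112 to 1136 CPM in unwounded leaves; ATML1, an epidermal identity factor, fell by 0.99 (SE 0.06). Of the mesophyll markers 4 of 5 were lower (median -0.27). Guard cell markers were lower at 2 of 6, phloem companion cell markers higher at 2 and lower at 1 of 5, and xylem markers were not called at any of 5. The lower phloem marker was lost without wounded replicate 2 or 3 or unwounded replicate 1 or 2, and 1 xylem marker was called lower without wounded replicate 2. The part of these shifts in the changes described above was not tested.

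The response of isi1-2 was measured in its own libraries with the same treatment. There 9508 genes (50.9%) were called, 4695 higher (25.1%) and 4813 lower (25.7%). Of the genes called higher in WT, 82.6% were also called higher in isi1-2, which is 78.4% of those called higher in isi1-2. Of the genes called lower in WT, 82.5% were also called lower in isi1-2, which is 73.7% of those called lower in isi1-2. Each of the 233 genes higher by at least 16-fold in WT was called higher in isi1-2. The list medians in isi1-2 were 3.83 for jasmonate synthesis, 5.73 for JAZ repressors, 7.95 for jasmonate catabolism, -1.28 for morning clock genes and 0.56 for evening clock genes. A difference between the 2 responses was called for 6 genes (0.0321% of those tested), a number that ranged from 0 to 245 when 1 WT library was left out, with 245 without wounded replicate 1. Of the 6, PRR5 and FKF1 are both in the evening clock list. In WT, PRR5 had 162, 160 and 159 CPM in wounded leaves and 94.1, 80.4 and 80.3 CPM in unwounded leaves, a rise of 0.91 (SE 0.09); in isi1-2 its log2 fold change was 0.12 (SE 0.09).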

How the data were processed

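RNA sequencing libraries of leaf 13 from 4 groups of 3 samples were analysed from the deposited counts per gene, which the authors left unnormalized. Per the submitters' processing notes, cutadapt 1.8, STAR 2.5.3a, HTSeq 0.9.1 and the genome TAIR10 were used; per the labels, the kit was a stranded TruSeq kit, and the use of strand in counting is not given in the sources used here. Reads on more than 1 gene were 0.0960% to 0.117% of a table, and rows that name no gene stayed out of library sizes. Of 34262 genes, the 18698 kept by filterByExpr (minimum count 10) were fitted over all 12 samples with edgeR 4.0.16 in R 4.3.3 (TMM, robust quasi-likelihood, 1 coefficient per group), and genes were called at a Benjamini-Hochberg adjusted p under 0.05. CPM use TMM library sizes. Tested on simulated counts of this comparison (18287 genes), the fit recovered 76.1% of 1.5-fold, 94% of 2-fold and 100% of 4-fold changes, with 14 false calls. The simulation changed 67, 67 and 66 genes of these sizes, in both directions and none of them at low counts. All other levels followed the unwounded WT mean, with no library set apart. In the data 46.9% of genes were called and wounded replicate 1 stood apart, so these rates may not hold there. Names, exon overlap, windows shared between genes (100 bases) and promoters came from RefSeq TAIR10.1. Alternatives were DESeq2 1.42.0, its size factors, no filter, only the WT samples, a replicate block, a 2-fold threshold and leaving out each WT library. Members and lists were chosen with earlier results of these data known.

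In each list the leading members were named, with up to 4 called members of the largest positive and up to 4 of the largest negative log2 fold change; in each family, up to 3 and 3; and, over all genes whose log2 CPM averaged 1 or more, the 10 largest in each direction, of which the text uses some. The NPH3, TCP-1/cpn60 and DEA(D/H)-box families came from 166 annotation terms with at least 10 tested genes. To complete a pathway or describe a contrast, these were named after their values were seen: ABR1, ACX1, ACX5, AIM1, AOC2, BGLU28, CLH1, CYP79F1, CYP83B1, ELF4, ESP, FAMT, GH3.3, GSTU5, HEL, IAR3, ILL6, JAZ2, JAZ3, JAZ9, JAZ12, JMT, LNK1, LNK2, LOX6, NINJA, OPCL1, PIN4, PROPEP5, PRR5, PRR7, RCA, RGA, SOT16, STP1, TAA1, THI2.1 and TPS10 (AT2G24210).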

Additional observations from a re-analysis of the deposited data

Results flagged for a closer look

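The response to wounding differed between isi1-2 and WT at 6 genes by edgeR's test of the difference itself, the difference being the isi1-2 response minus the WT response on the log2 scale. EXPA10, an alpha-expansin, differed by 1.11 (SE 0.17; edgeR adjusted p = 0.0379), with wounding responses of 2.29 in isi1-2 and 1.19 in WT. UGT71B1, a glycosyltransferase, differed by 0.96 (SE 0.15; edgeR adjusted p = 0.0379), with responses of 2.08 in isi1-2 and 1.12 in WT. AT2G31560 differed by 0.89 (SE 0.12; edgeR adjusted p = 0.0212), with responses of 0.29 in isi1-2 and -0.60 in WT. APT2, an adenine phosphoribosyltransferase, differed by -0.86 (SE 0.13; edgeR adjusted p = 0.0376), with responses of -2.88 in isi1-2 and -2.01 in WT. The clock gene PRR5 differed by -0.80 (SE 0.13; edgeR adjusted p = 0.0453), with responses of 0.12 in isi1-2 and 0.91 in WT. FKF1, a blue-light receptor of the clock, differed by -0.76 (SE 0.12; edgeR adjusted p = 0.0376), with responses of 0.45 in isi1-2 and 1.21 in WT. In unwounded leaves the means of FKF1 were 67.9 CPM in isi1-2 and 39.4 CPM in WT, and those of PRR5 were 112 CPM in isi1-2 and 85.0 CPM in WT. The cause was not tested.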

How the results depend on the processing

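The number of genes called in WT, 8764 by edgeR, ranged from 7536 to 8848 when 1 WT library was left out and was 8459 with DESeq2, 8791 with its size factors, 8589 with no filter and 8127 with only the 6 WT samples. With a 2-fold threshold added, 2506 genes were called, 1460 higher and 1046 lower. Same-numbered wounded and unwounded libraries correlated at 0.0817, 0.0538 and 0.0170 in their deviations from the group means. Wounded replicate 3 correlated at 0.0176 with unwounded replicate 2, and every other library correlated best with its own number. The labels' numbers were not taken to pair the libraries, and whether same-numbered libraries shared a batch was not tested. A replicate block gave 9079 calls in WT and 75 for the difference between isi1-2 and WT. That difference, 6 genes, was called for 29 genes with no filter, for 152 with DESeq2, and for 0 to 245 when 1 WT library was left out. Over 211 named genes, every one kept its direction with size factors, with no filter, with only the WT samples and with the block; AT2G28200 lost its call under all of these, AG with only the WT samples and RVE2 with no filter, and 29 fell short with the 2-fold threshold. Uncalled genes near 0 changed sign: AIM1 ranged from -0.0534 to 0.033 and MYB51 from -0.0166 to 0.40 without 1 library, and AIM1 was 0.000453 with DESeq2. The cause of these shifts was not tested. With 3 libraries per group, genes at a few counts have wide errors, and a gene not called is not shown to be unaltered.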
